A study of Mus musculus with 15 samples.

Results

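The genes described here are the nuclear-encoded subunits of the mitochondrial oxidative phosphorylation complexes and a few of their helpers. They were chosen by symbol alone, from the 16610 genes whose counts average 10 or more over 15 libraries. A gene was taken when its symbol begins with Nduf, Uqcr, Atp5 or Cox4 to Cox8, or is Cyc1, Sdha, Sdhb, Sdhc or Sdhd, and symbols with -ps were left out. This gave 90 genes. Of these, 35 are subunits of complex I, 8 are complex I assembly factors (Ndufaf1 to Ndufaf8), 4 belong to complex II, 9 to complex III, 16 to complex IV and 17 to complex V. The last, Atp5s, carries an ATP synthase name but is not counted among the subunits of the enzyme and stands apart. Ndufa4 and Ndufa4l2 were placed with complex IV, where Ndufa4 is now known to belong.

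The libraries hold RNA from nuclei of mouse ventricular muscle that were sorted for Pcm1, a protein of centriolar satellites that marks cardiomyocyte nuclei. The labels give a genotype, Pgr_KO or Pgr_WT, and a sex: 4 female and 4 male libraries labelled knockout, 3 female and 4 male libraries labelled wild type. Pgr encodes the progesterone receptor, and the series title asks about its sex-specific control of heart maturation. The tissue label begins with 3-6, with no unit or explanation. The sources used here name neither the knockout allele nor the strain, a stated age or any treatment of a group, and they do not say whether replicates are separate animals. Each p-value therefore measures only the spread between these samples.

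Oxidative phosphorylation turns the energy of food into ATP. Complexes I and II feed electrons from NADH and succinate into the chain, complex III passes them to cytochrome c, and complex IV hands them to oxygen. Complexes I, III and IV pump protons across the inner mitochondrial membrane, and complex V, the ATP synthase, uses the return of these protons to make ATP. The heart depends on this route more than almost any other tissue. Complex II is encoded by nuclear genes alone, whereas the others also hold subunits encoded by mitochondrial DNA. The RNA measured here comes from nuclei, and spliced and unspliced reads were not counted apart. Levels are therefore no measure of the protein content of mitochondria.

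In all 15 libraries the reads of Pgr ran opposite to the order that the genotype labels name. They stood at 6.10 to 12.5 CPM (normalised counts, relative to each library's TMM-scaled size) under the knockout label. Under the wild-type label they stood at 0 to 0.267 CPM. These are reads over the whole gene body, the knockout allele is not named, and the cause of this order was not tested. The words "labelled knockout" and "labelled wild type" are kept throughout, and every direction below is a direction between labels. Total counts ran from 24.4 to 139.4 M per library. Knockout female 2, wild-type female 2 and wild-type male 2 hold reads of the other sex's marker gene at over 1% of its level in that sex (Ddx3y or Xist), and are called sex-mixed here. The name refers to these reads alone, and their source was not tested. The 6 libraries with high non-myocyte markers are knockout female 1 and 2, knockout male 1 and 2, wild-type female 1 and wild-type male 1. In these the endothelial gene Pecam1 ran from 37.03 to 79.5 CPM, and in the remaining 9 from 2.62 to 8.06 CPM. A sum over 8 cardiomyocyte genes was 47392 to 73335 CPM in the former and 61022 to 77578 CPM in the latter.

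Promoter sequences are shown for paralogues of complex IV whose levels are described by library below. Mammals have a heart and skeletal muscle form of several small subunits of cytochrome c oxidase and a form that is used in all tissues. Cox7a1 and Cox8b are muscle forms, and Cox7a2, Cox8a and Cox6a1 are their ubiquitous counterparts and that of the muscle gene Cox6a2. The 200 bases before the RefSeq start are given 5′ to 3′ on the gene's strand (RefSeq on GRCm38.p6). They come from chr7:30183971-30184170 on the plus strand for Cox7a1. On the minus strand they come from chr9:79759854-79760053 for Cox7a2, chr7:140900447-140900646 for Cox8b, chr19:7217617-7217816 for Cox8a and chr5:115348959-115349158 for Cox6a1. Capitals mark matches, on either strand, to the motifs named after the sequences.
Cox7a1: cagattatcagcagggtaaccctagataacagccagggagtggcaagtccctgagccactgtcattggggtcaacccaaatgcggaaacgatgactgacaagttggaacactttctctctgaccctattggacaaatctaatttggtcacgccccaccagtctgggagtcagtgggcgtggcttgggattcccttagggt
Cox7a2: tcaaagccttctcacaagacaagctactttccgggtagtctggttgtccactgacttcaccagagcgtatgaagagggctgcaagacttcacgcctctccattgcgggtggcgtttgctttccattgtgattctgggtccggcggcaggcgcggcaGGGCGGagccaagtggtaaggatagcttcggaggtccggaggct
Cox8b: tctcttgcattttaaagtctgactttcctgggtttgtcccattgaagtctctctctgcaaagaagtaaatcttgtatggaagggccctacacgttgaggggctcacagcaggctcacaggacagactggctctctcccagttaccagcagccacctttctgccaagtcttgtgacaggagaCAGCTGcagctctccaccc
Cox8a: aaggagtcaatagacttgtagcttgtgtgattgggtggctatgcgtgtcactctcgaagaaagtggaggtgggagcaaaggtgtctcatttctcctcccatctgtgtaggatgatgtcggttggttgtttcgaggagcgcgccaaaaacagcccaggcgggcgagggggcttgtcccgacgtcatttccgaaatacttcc
Cox6a1: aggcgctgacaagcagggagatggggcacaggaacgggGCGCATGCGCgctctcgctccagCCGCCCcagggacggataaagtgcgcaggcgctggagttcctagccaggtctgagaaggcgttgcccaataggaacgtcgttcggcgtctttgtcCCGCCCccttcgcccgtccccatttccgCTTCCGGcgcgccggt

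The motifs were those of NRF1 (GCGCATG, a stretch of its palindromic site), GABP (CCGGAAG), YY1 (AAGATGG), ERR (AAGGTCA), SP1 (GGGCGG), the TATA box (TATAAA) and an E-box (CAGCTG), searched on both strands as exact letters. No motif can lie inside another, and in a full NRF1 palindrome the matches of both strands overlap. NRF1 and GABP are transcription factors known for their sites in respiratory chain promoters, and ERR stands for the oestrogen-related receptors, which drive mitochondrial genes in the heart. Of the 90 genes, 71 matched a RefSeq promoter of 300 bases, and shares refer to these windows. Cox6a2, Cox4i2 and Ndufa4l2 were not among the 71, so no sequence is shown for them. The RefSeq start lay up to 4648 bases from the start of the gene body (the long Atp5o entry), and 1305 bases for Atp5g2. The NRF1 letters stood in 15 of the 71 (21.1%), against 4.65% of 20595 promoters. These 15 included Cox6a1 and Cox5b of complex IV, Sdhb of complex II, Uqcrc1 and Uqcr11 of complex III, and Atp5g2, Atp5k and Atp5l of complex V. The GABP letters stood in 23.9% of the genes' promoters and 11% of all, those of YY1 in 14.1% and 6.39%, and those of ERR in 11.3% and 4.25%. The SP1 letters were about as frequent in both sets, at 42.3% and 42.7%. TATA and E-box letters were each in 8.45% of the genes' promoters and in 13.2% and 15.6% of all. In the printed sequences, Cox6a1 holds a full NRF1 palindrome, GABP and a pair of SP1 matches. Cox7a2 holds a single SP1 match and Cox8b a single E-box match, while Cox7a1 and Cox8a hold none. In the windows of 300 bases, Cox8a also holds the GABP letters and Cox8b the TATA letters, outside the printed bases. A match is a run of letters and does not show that a factor binds there.

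All 90 genes passed the filter on low counts, but the deposited counts leave some subunits out. Counts were made over whole gene bodies, introns included. Cox4i1, the common form of the complex IV subunit 4, and Ndufa13, an accessory subunit of complex I, have 0 reads in all 15 libraries and are therefore not among the 90. The body of Cox4i1 (chromosome 8, 120668222 to 120674207, plus strand, GRCm38) lies entirely within that of Gm20388, an entry of 4434882 bases. The body of Ndufa13 (chromosome 8, 69894180 to 69902558, minus strand) lies entirely within that of Yjefn3. Of the 6594 genes whose bodies other genes cover in full on the same strand, 6592 have 0 counts in all libraries, against 32.9% of the 48942 others. Their 0 counts are thus no measurement of these subunits. At least 10% of the body is covered in 5 of the 90 genes, Ndufb2 (37.2%), Ndufb8 (62.0%), Ndufb9 (62.9%), Atp5o (27.3%) and a second, 242585-base entry that also carries the symbol Atp5o (18.9%), and their levels are uncertain. Ndufb1-ps has a mean of 666 counts and is left out by the rule on symbols. Another 9 genes fell under a mean of 10 counts, among them Cox4i1 and Ndufa13 and the testis forms Cox6b2, Cox7b2 and Cox8c.

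Per kilobase of gene body, the 90 genes had a median of 4.59 CPM, taken over each gene's mean of 15 libraries. The medians were close to each other for complex II (5.49), complex III (6.57), complex IV (6.67) and complex V (5.24), and lower for complex I (3.04 CPM per kb). Within complex I, the 7 core subunits, which carry the redox centres, had a median of 4.93 CPM per kb and the 28 accessory subunits 2.71. The assembly factors, which build complex I without staying in it, had a median of 0.911 CPM per kb. Levels per length depend on how the body is spliced and on its exon share, so they rank nuclear reads and not protein.

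**Figure D1:**
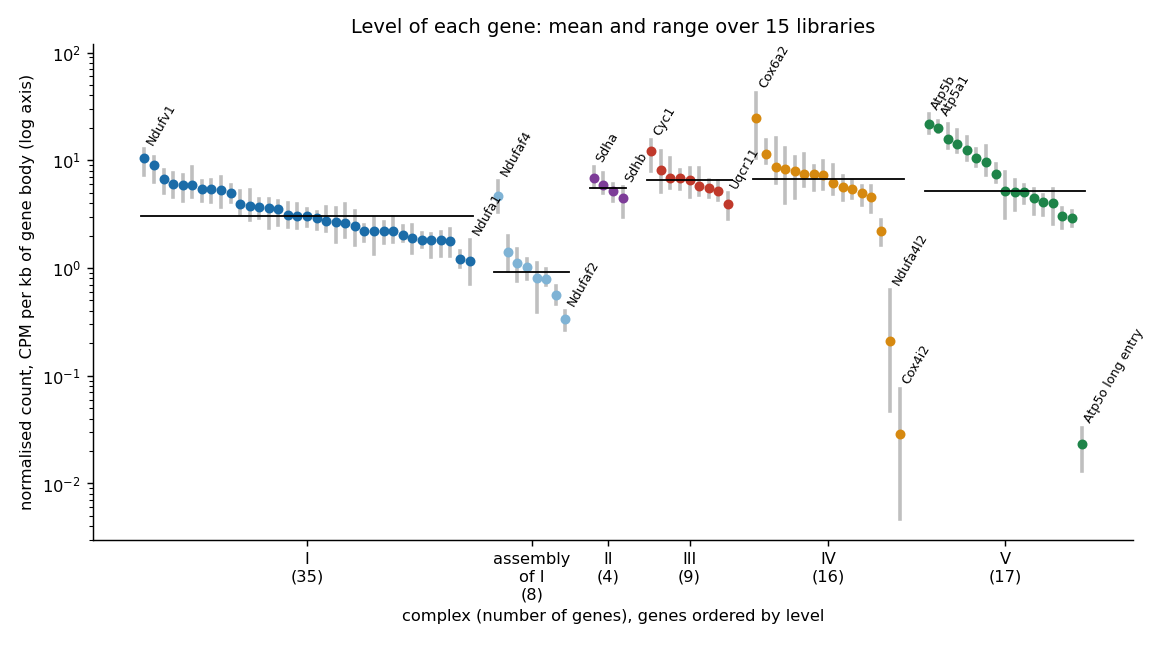
Normalised count per kilobase of gene body (log axis) for 89 genes, ordered by level within each complex; points are means over 15 libraries, grey bars run from the lowest to the highest library and black lines are medians. Atp5s (1.40 CPM per kb) is not drawn. Cox6a2 is highest at 24.7 CPM per kb, and Cox4i2, Ndufa4l2 and the long Atp5o entry lie far below the rest.

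Cox6a2, the muscle form of complex IV subunit 6a, was the highest of all at 24.7 CPM per kb. Atp5b and Atp5a1, the beta and alpha subunits of the catalytic head of ATP synthase, followed at 21.5 and 20.04. Cyc1, the cytochrome c1 of complex III, led its complex at 12.1 CPM per kb, and Uqcr11, a small accessory subunit, closed it at 3.9. Ndufv1, which binds NADH and its flavin in complex I, stood at 10.4, and Ndufa1, an accessory membrane subunit, at 1.15. In complex II, the flavoprotein Sdha led at 6.81 and the iron-sulphur subunit Sdhb was lowest at 4.498 CPM per kb, so that the 4 subunits lay close together. Ndufaf4 led the assembly factors at 4.63 and Ndufaf2 closed them at 0.339. The lowest levels were those of Cox4i2, the hypoxia-responsive form of subunit 4, at 0.0290 CPM per kb and of the long Atp5o entry at 0.0232.

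Summed over each complex, the 4 label groups overlapped throughout. For complex I the sums were 1556 ± 239 CPM (SD, n = 4) in females labelled knockout, 1669 ± 168 (n = 3) in females labelled wild type, 1640 ± 160 (n = 4) in males labelled knockout and 1606 ± 205 (n = 4) in males labelled wild type. For complex V they were 1208 ± 92.0, 1280 ± 181, 1209 ± 81.3 and 1218 ± 153 CPM in the same order. Over all 90 genes the lowest library of the 15 was knockout female 2 (3843 CPM) and the highest wild-type female 2 (5124 CPM), 2 of the 3 sex-mixed libraries. The third, wild-type male 2, was the lowest of its group at 3930 CPM. In bulk nuclei, fewer cells of a type and less RNA per cell cannot be told apart.

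Between the genotype labels in females, none of the 90 genes passed the test. The genes lay mostly a little lower under the knockout label: 81 of 90 fold changes were below 0, with a median log2 fold change of -0.12, while 44.6% of all tested genes were below 0, with a median of 0.03. By complex, 33 of 35 complex I subunits, 6 of 8 assembly factors, 4 of 4 genes of complex II, 8 of 9 of complex III, 14 of 16 of complex IV and 16 of 17 of complex V were below 0. Such counts, here and below, are not independent observations, since the genes share their libraries. The median deviation of the 90 genes from their medians over libraries had an SD of 0.149 (log2) between libraries. It was -0.21 in knockout female 2 and 0.20 in wild-type female 2. edgeR's quasi-likelihood test with Benjamini-Hochberg adjustment called 0 of the 90 and 0% of the 17455 genes tested. None of the 90 had an unadjusted p below 0.05, against 1.74% of all genes, and DESeq2 called 0 of them.

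This lean did not hold without the 3 sex-mixed libraries: 47 of 90 genes were then lower in females and the median was -0.0075. That setting leaves only wild-type female 1, with high markers, and wild-type female 3, with low markers, in their group. With all libraries the lean was kept by DESeq2 (86 of 90 lower, median -0.15). It was also kept with the replicate number as a block (86 of 90, median -0.15) and with a term for marker level (75 of 90, median -0.09). Leaving out a single library moved the female median to -0.06 without wild-type female 2 (52 of 90 lower) and to -0.08 without knockout female 2. It moved to -0.22 without wild-type female 1 and to -0.20 without knockout female 4. Among the libraries with high non-myocyte markers alone, the female median was 0.0043 (43 of 90 lower), and among those with low markers it was -0.10 (75 of 90 lower).

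The genes with the smallest p in females were Uqcr10, Ndufb7, Cox5b, the long Atp5o entry and Uqcrq. Uqcr10, a small subunit of complex III, stood at 19.1, 16.5, 12.1 and 17.6 CPM in the females labelled knockout and at 16.8, 24.2 and 23.0 CPM in those labelled wild type. The groups overlapped, since the lowest wild-type library lay below 2 of the knockout libraries. The log2 fold change was -0.39 ± 0.204 (SE), with an adjusted p of 1 in edgeR. Ndufb7, an accessory subunit of complex I, stood at 11.9, 7.16, 7.56 and 8.67 CPM under the knockout label and 12.7, 9.77 and 13.8 CPM under the wild-type label (log2 fold change -0.45 ± 0.244, adjusted p of 1 in edgeR). Here knockout female 1 lay above wild-type female 2 and the other knockout libraries lay below all 3. Uqcrq, another small subunit of complex III, had a log2 fold change of -0.29 ± 0.183, and the long Atp5o entry one of -0.35 ± 0.216.

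In 3 of the 90 genes, every female library labelled knockout lay below every one labelled wild type, where 1.01% of all genes did so. Cox5b, a zinc-binding subunit of complex IV, stood at 15.3, 16.1, 13.2 and 15.5 CPM against 16.3, 19.7 and 18.7 CPM. Its log2 fold change was -0.28 ± 0.158. Cyc1 stood at 33.5, 29.3, 29.4 and 33.2 CPM against 33.9, 35.5 and 42.0 CPM, and the nearest libraries of the groups differed by less than 1 CPM. Ndufb9, an accessory subunit of complex I with 62.9% of its body covered by another gene, stood at 10.6, 9.38, 9.73 and 10.2 CPM against 10.7, 10.8 and 10.6 CPM. That separation is narrower than the spread within the knockout group. All 3 had an adjusted p of 1 in edgeR.

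Between the labels in males, the genes did not lean to the same side. Fold changes were below 0 in 30 of 90, with a median of 0.07, against 47% and 0.02 over all tested genes. edgeR called 0 of the 90 and 0.0115% of all genes, and DESeq2 also called 0 of the 90. An unadjusted p below 0.05 was found for 2 of the 90, Cox7a1 and Ndufv3, where 1.42% of all genes had one. With a term for marker level 14 of 90 were lower, with a median of 0.10. DESeq2 gave 30 of 90 lower (median 0.07) and the replicate number as a block 29 of 90 (median 0.08). Without the 3 sex-mixed libraries, 43 of 90 were lower and the median was 0.0031. Without wild-type male 2 alone it was -0.0035 (48 of 90 lower), and without knockout male 4 it was 0.02. It was 0.13 both without wild-type male 3 and without knockout male 1.

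Ndufv3, a small subunit at the NADH-binding end of complex I, stood at 22.7, 23.8, 24.4 and 23.1 CPM in males labelled knockout and at 21.1, 16.5, 16.9 and 19.5 CPM in those labelled wild type. It was the 1 gene of the 90 whose male groups did not overlap in the higher direction, as in 0.756% of all genes. Its log2 fold change was 0.34 ± 0.146, with an adjusted p of 0.999 in edgeR, and 0.29 ± 0.135 without the 3 libraries. In females it overlapped between labels, at 23.8, 14.6, 16.2 and 20.7 CPM against 17.8, 22.5 and 20.8 CPM. Uqcr10, Uqcrq and Ndufa2, an accessory complex I subunit, had log2 fold changes of 0.35 ± 0.189, 0.31 ± 0.170 and 0.34 ± 0.188 in males, each with an adjusted p of 0.999 in edgeR.

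**Figure D2:**
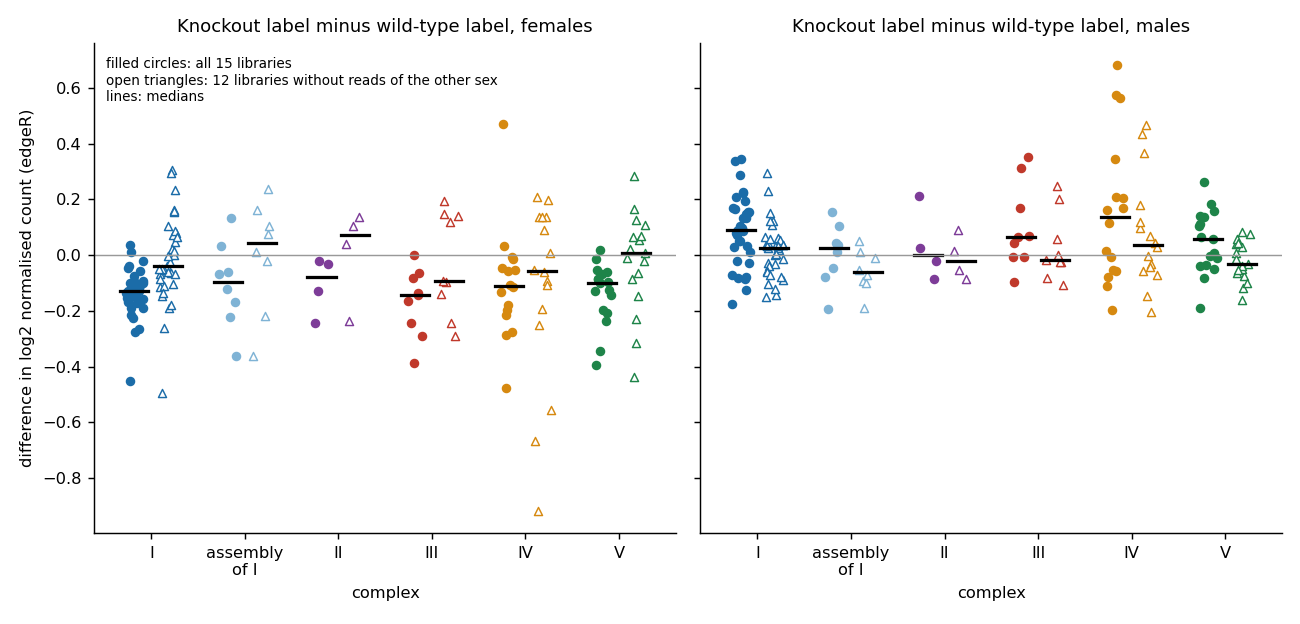
Difference in log2 normalised count, knockout label minus wild-type label, for each gene by complex in females (left) and males (right); filled circles use all 15 libraries, open triangles the 12 libraries that are not sex-mixed, and black lines are medians. In females 81 of 90 genes lie below 0 with all libraries and 47 of 90 without the 3.

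The difference between the female and the male label effects is the comparison that the series title points to, and it too called 0 of the 90 genes and 0% of all genes by edgeR, with 0 of the 90 by DESeq2. The difference was below 0 in 77 of 90 genes, with a median of -0.17, against 47.8% and 0.02 over all tested genes. By DESeq2 it was below 0 in 79 of 90, with a median of -0.20. With the replicate number as a block it was below 0 in 80 of 90 (median -0.21), and with a term for marker level in 80 of 90 (median -0.19). Without the 3 libraries it was below 0 in 46 of 90, with a median of -0.03. With high marker level alone it was below 0 in 64 of 90, with a median of -0.06, and with low marker level alone in 76 of 90, with a median of -0.27. Without wild-type female 2 it was below 0 in 57 of 90, with a median of -0.17. Without wild-type female 1 or wild-type male 3 the median was -0.26 each time. Uqcr10 (-0.74 ± 0.278), Uqcrq (-0.60 ± 0.250) and Ndufb7 (-0.74 ± 0.333) had unadjusted p-values below 0.05, as 2.49% of all genes did. Ndufv3 (-0.46 ± 0.215) and Cox7a1 (-0.74 ± 0.357) came next. Their adjusted p was 0.9999 in edgeR, and without the 3 libraries Uqcr10 stood at -0.54 ± 0.315, Ndufb7 at -0.62 ± 0.304 and Uqcrq at -0.34 ± 0.257.

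Females were also compared with males under each label. Under the knockout label, 60 of 90 genes were lower in females, with a median of -0.08, against 48% and 0.01 over all tested genes. edgeR called 0 of the 90 and 0.0229% of all genes, and DESeq2 called 0 of the 90. Unadjusted p-values below 0.05 were found for 7 of the 90, against 6.37% of all genes. They included Uqcr10 (-0.47 ± 0.190), Cox7a1 (-0.57 ± 0.244), Ndufb7 (-0.53 ± 0.227) and Cox6b1 (-0.27 ± 0.124), all lower in females. Ndufaf7, a methyltransferase needed to assemble complex I, was the 1 of the 7 that was higher in females (0.32 ± 0.130). All adjusted p-values were at least 0.757 in edgeR. Without the 3 libraries 57 of 90 were lower, with a median of -0.05. The median was also -0.05 without knockout female 2 and -0.04 without knockout male 4. It was -0.16 without knockout female 4 and -0.14 without knockout male 1.

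Cox6b1, a subunit of complex IV that faces the intermembrane space, stood at 47.9, 36.1, 38.6 and 45.8 CPM in females labelled knockout and at 48.3, 49.97, 52.8 and 52.8 CPM in males of that label. The sexes did not overlap, though knockout female 1 and knockout male 1 nearly met. Ndufb9 was the other gene without overlap in this direction, which 1.92% of all genes showed. Ndufaf7 stood at 5.90, 7.37, 7.15 and 6.42 CPM in these females and 5.08, 6.08, 5.10 and 5.23 CPM in the males, with an overlap at knockout male 2.

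Under the wild-type label the lean had the opposite sign, with 11 of 90 genes lower in females and a median of 0.09, against 50.7% and -0.0032 over all tested genes. edgeR called 0 of the 90 and 0% of all genes, and DESeq2 called 0 of the 90. None of the 90 had an unadjusted p below 0.05, against 2.09% of all genes. DESeq2 gave 7 of 90 lower (median 0.12) and a term for marker level 9 of 90 (median 0.10). With the replicate number as a block 6 of 90 were lower (median 0.14), and with low markers alone 8 of 90 (median 0.17). Without the 3 libraries 58 of 90 were lower in females and the median was -0.04. Among libraries with high markers alone it was -0.04 (54 of 90 lower). Without wild-type female 2 alone the median was 0.04, and without wild-type male 2 alone it was 0.05. It was 0.18 without wild-type female 1 and 0.17 without wild-type male 3. Atp5e, the epsilon subunit in the central stalk of ATP synthase, had the smallest p, at 11.3, 16.6 and 13.7 CPM in its female libraries and 10.6, 7.80, 11.6 and 12.8 CPM in its male ones (log2 fold change 0.37 ± 0.179, adjusted p of 0.9999 in edgeR). The groups overlapped, with the highest female and the lowest male value both from sex-mixed libraries. Ndufb11 (0.35 ± 0.210), Ndufa2 (0.31 ± 0.202), Uqcrq (0.29 ± 0.183) and Ndufv1 (0.21 ± 0.152) followed.

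None of the 3 muscle forms of complex IV passed the test between labels, and each varied between libraries within the label groups. Cox6a2 stood at 26.985, 16.5, 14.2 and 15.2 CPM in females labelled knockout and at 18.3, 20.9 and 36.9 CPM in those labelled wild type. In males it stood at 23.4, 40.4, 22.4 and 39.9 CPM under the knockout label and 24.4, 10.03, 11.7 and 32.4 CPM under the wild-type label. Values were spread widely within each group, and each of the 4 groups overlapped the others. The log2 fold change between labels was -0.48 ± 0.411 in females and 0.68 ± 0.384 in males, neither past the test.

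Cox7a1 followed a like order, at 17.3, 14.8, 11.2 and 12.4 CPM against 14.2, 17.9 and 15.3 CPM in females and at 18.3, 22.5, 16.6 and 25.1 CPM against 16.1, 7.83, 11.8 and 20.02 CPM in males, knockout label first. Wild-type male 2 was the lowest library of all 15 in Cox7a1, and knockout male 4 the highest. Its male log2 fold change of 0.56 ± 0.243 (adjusted p of 0.999 in edgeR) was 0.37 ± 0.215 without the 3 libraries. Cox8b stood at 10.7 ± 1.07 CPM (SD, n = 4) and 13.1 ± 2.5015 (n = 3) in females and at 13.4 ± 3.04 (n = 4) and 10.6 ± 2.81 (n = 4) in males, knockout label first. Across the 15 libraries, Pearson's r was 0.89 between Cox6a2 and Cox7a1, 0.79 between Cox6a2 and Cox8b and 0.87 between Cox7a1 and Cox8b. All libraries share a scaling, and these values are a description of the 15 libraries.

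**Figure D3:**
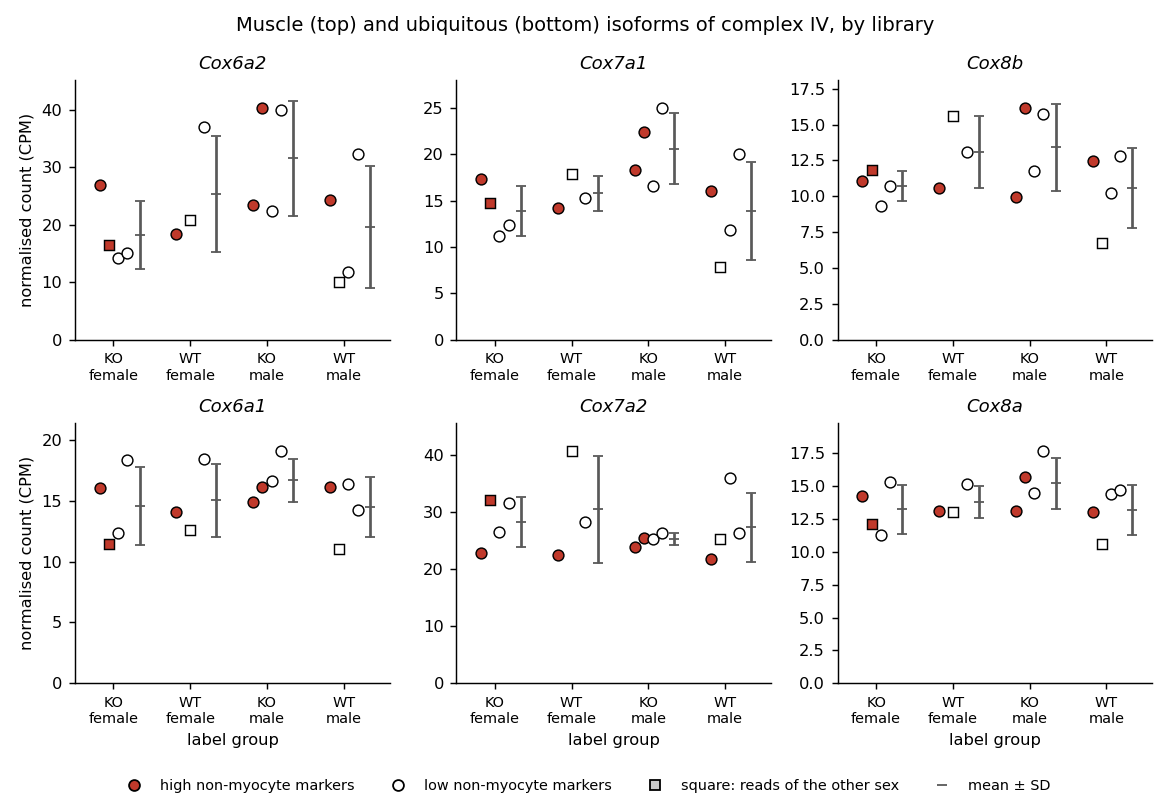
Normalised count (CPM) of the muscle forms Cox6a2, Cox7a1 and Cox8b (top) and the ubiquitous forms Cox6a1, Cox7a2 and Cox8a (bottom) in each library by label group, with mean ± SD; red marks the 6 libraries with high non-myocyte markers and squares the 3 sex-mixed libraries. Cox6a2 runs from 10.03 to 40.4 CPM, and its groups overlap.

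The ubiquitous partners moved with the muscle forms to different degrees. Cox7a2 had an r of -0.11 with Cox7a1, Cox6a1 one of 0.56 with Cox6a2, and Cox8a one of 0.71 with Cox8b. As a share of the reads of each pair, Cox6a2 took 55.1% ± 7.58 in females and 64.4% ± 6.33 in males labelled knockout (SD, n = 4 each). It took 61.9% ± 5.11 (n = 3) and 54.7% ± 12.5 (n = 4) in females and males labelled wild type. The share of Cox7a1 in its pair was 33.2% ± 6.76, 44.7% ± 3.95, 34.8% ± 4.09 and 33.6% ± 10.8 in the same order. That of Cox8b was 44.8% ± 3.49, 46.5% ± 3.28, 48.5% ± 5.26 and 44.0% ± 4.65. The ranges of the label groups overlapped in each case except that of Cox7a1 in males labelled knockout (39.7 to 48.7%) against females labelled wild type (30.6 to 38.8%), which differ in label and sex at once. These shares are of reads over whole bodies of different length and compare libraries, not the members of a pair.

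The ring of ATP synthase that turns as protons pass is built from a single protein encoded by 3 genes, Atp5g1, Atp5g2 and Atp5g3. Of their reads, Atp5g1 took 30.8% ± 1.22 in females and 34.3% ± 1.15 in males labelled knockout, and 31.8% ± 1.97 and 31.7% ± 3.06 in females and males labelled wild type. Every male library labelled knockout (32.9 to 35.4%) lay above every female one of that label (29.1 to 31.9%). The males labelled wild type ran from 28.7 to 35.8% and spanned both of these groups. The share of Atp5g3 was 43.6% ± 2.34, 40.2% ± 2.38, 42.6% ± 3.18 and 42.2% ± 2.54 in the same order, and its groups overlapped. The shares were not tested.

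None of the 4 genes of complex II passed the test between labels. Sdha, the catalytic flavoprotein, stood at 197 ± 25.7 and 201 ± 37.2 CPM in females and at 179 ± 12.8 and 190 ± 30.4 CPM in males, knockout label first (SD, n = 4, 3, 4 and 4). Sdhc and Sdhd, which anchor the enzyme in the membrane, had log2 fold changes of -0.02 ± 0.142 and -0.13 ± 0.149 in females and of 0.03 ± 0.132 and -0.02 ± 0.138 in males. Sdhb, the iron-sulphur subunit, differed more between libraries, at 85.2, 54.0, 69.3 and 80.3 CPM against 82.4, 71.8 and 102 CPM in females. In males it stood at 79.1, 82.4, 96.97 and 101 CPM against 86.4, 56.8, 82.6 and 83.9 CPM. Its label groups overlapped in both sexes, and its log2 fold changes were the widest of complex II, at -0.24 ± 0.184 in females, 0.21 ± 0.171 in males and -0.46 ± 0.252 for the difference between them. In each of the 3 groups that include a sex-mixed library, that library had the lowest Sdhb value.

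Of the 6 comparisons made, the one by level of non-myocyte markers was the only one in which any of the 90 genes passed the test. The 6 libraries with high and the 9 with low levels of Pecam1, Dcn and Rgs5, genes of endothelial cells, fibroblasts and pericytes, were compared within the label groups. These sets were defined from the data and are not the study's groups, and the comparison was added after the data had been seen. edgeR called 23 of the 90 genes. Of these, 21 were lower in the high-marker libraries, where 8.04% of all tested genes were called lower, and 2 were higher, where 20.8% were called higher. The median log2 fold change of the 90 was -0.17, against -0.02 over all tested genes. In all, 72 of the 90 fold changes were below 0, against 53% over all tested genes, and 28.8% of all genes were called in either direction. DESeq2 called 29 of the 90 lower and 2 higher.

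The genes called lower came from every complex. They were Ndufs1, Ndufs4, Ndufb3, Ndufb4 and Ndufa5 of complex I, the assembly factors Ndufaf4 and Ndufaf6, Sdha, Sdhc and Sdhd of complex II, and Uqcrc2 and Uqcrh of complex III. Complex IV gave Cox5a, Cox6c and Cox7b, complex V gave Atp5c1, Atp5f1, Atp5g2, Atp5j and Atp5l, and Atp5s was lower too. Sdhc stood at 97.3 to 116 CPM in the high-marker libraries, with a mean of 107 ± 7.47 (SD, n = 6), and at 118.6 to 142.4 CPM in the others, with a mean of 130 ± 7.16 (n = 9). The ranges did not overlap. The log2 fold change was -0.30 ± 0.0685, with an adjusted p of 0.00379 in edgeR. Ndufs1, the largest core subunit of complex I, ran from 137 to 155 CPM against 165 to 197 CPM, again without overlap (-0.28 ± 0.0705, adjusted p of 0.00650 in edgeR). Atp5g2 and Ndufb4 were the other genes of the 90 without overlap in this direction, which 1.08% of all genes showed. Ndufs4, an accessory subunit of complex I whose loss causes Leigh syndrome, had a log2 fold change of -0.41 ± 0.104 (adjusted p of 0.00771 in edgeR).

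The 2 genes called higher were Ndufa4l2 and Cox4i2, the paralogues of Ndufa4 and of the unmeasured Cox4i1. Ndufa4l2 is a target of the hypoxia-inducible factor, and both genes are known as transcripts of vascular mural cells. Ndufa4l2 stood at 0.728, 1.37, 0.523, 1.10, 0.816 and 0.751 CPM in the 6 high-marker libraries and at 0.102 to 0.263 CPM in the other 9. Cox4i2 stood at 0.404, 0.588, 0.598, 0.430, 0.505 and 0.811 CPM in the former and 0.0512 to 0.356 CPM in the latter. Neither overlapped between the sets, as in 13.6% of all genes in the higher direction. The log2 fold changes were 2.35 ± 0.267 (adjusted p of 4.06e-06 in edgeR) and 1.95 ± 0.315 (adjusted p of 0.000153 in edgeR). Both rest on few reads, with means of 48.2 and 28.7 counts per high-marker library and 10.7 and 10.1 counts per low-marker library. Rgs5, a pericyte gene, ran from 29.1 to 80.9 CPM in the high-marker libraries and from 6.22 to 13.4 CPM in the others, and 4 of 6 mural genes stood higher in each high-marker library than in any other, while 1 of the 6 stood lower in each. Of the leukocyte genes 3 of 6 stood higher in each, with sums of 34.3 to 87.9 against 6.84 to 28.9 CPM. So did 8 of 8 endothelial and 8 of 8 fibroblast genes, with sums of 216 to 395 against 16.4 to 55.6 CPM and of 386 to 1093 against 36.5 to 149 CPM. Pecam1, Dcn and Rgs5, which defined the sets, are among these markers, so the counts partly restate that definition. None of these markers was at 0 in a low-marker library. The summed mural genes overlapped, at 481 to 572 against 485 to 630 CPM. The part of these cell types in the result was not tested. Between the genotype labels, neither gene passed the test in either sex.

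**Figure D4:**
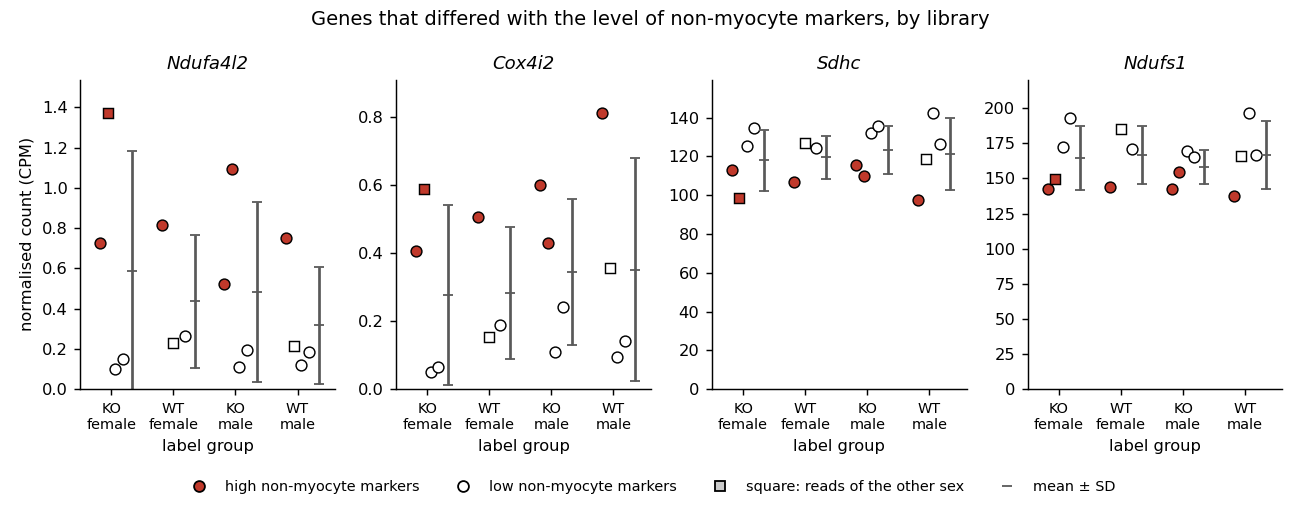
Normalised count (CPM) of Ndufa4l2, Cox4i2, Sdhc and Ndufs1 in each library by label group, with mean ± SD per group; red marks the 6 libraries with high non-myocyte markers and squares the 3 sex-mixed libraries. In every group the red libraries lie above the open ones for Ndufa4l2 and Cox4i2 and below them for Sdhc and Ndufs1.

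These calls depend on a few libraries and on the replicate numbers. Without single libraries, the number of the 90 genes called ran from 8 to 31, against 23 with all. It fell to 8 without wild-type female 1, to 9 without knockout female 4, to 11 without wild-type male 1 and to 15 without knockout male 1. It rose to 31 without wild-type male 2, to 28 without knockout male 2, to 27 without wild-type male 4 and to 26 without knockout female 3. Without the 3 sex-mixed libraries it was 19. Replicate 1 has high markers in every label group and replicates 3 and 4 have low markers, so a fit with the replicate number as a block compares marker levels through replicate 2 alone. In that fit 1 of the 90 genes was called, the median was -0.014 and 48 of 90 were lower. Ndufa4l2 kept its call there, and Cox4i2 (1.30), Sdhc (-0.30), Ndufs1 (-0.19) and Atp5s (-0.37) lost theirs.

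Gene length went along with this difference. None of the 30 genes with bodies under 5 kb was called lower, against 10 of 29 from 5 to 10 kb, 4 of 17 from 10 to 20 kb and 7 of 14 of 20 kb and over. Over all tested genes the shares called lower were 3.26%, 4.21%, 5.75% and 11.0% in the same order. The last 2 length classes hold fewer than 20 of the 90 genes each. Spearman's rho between body length and fold change was -0.53 over the 90 genes, which share their libraries, so no p is given. Shorter genes also varied more between libraries, with a rho of -0.46 between body length and the SD of log2 CPM and of -0.40 between mean count and that SD. The cause of the relation with length was not tested.

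**Figure D5:**
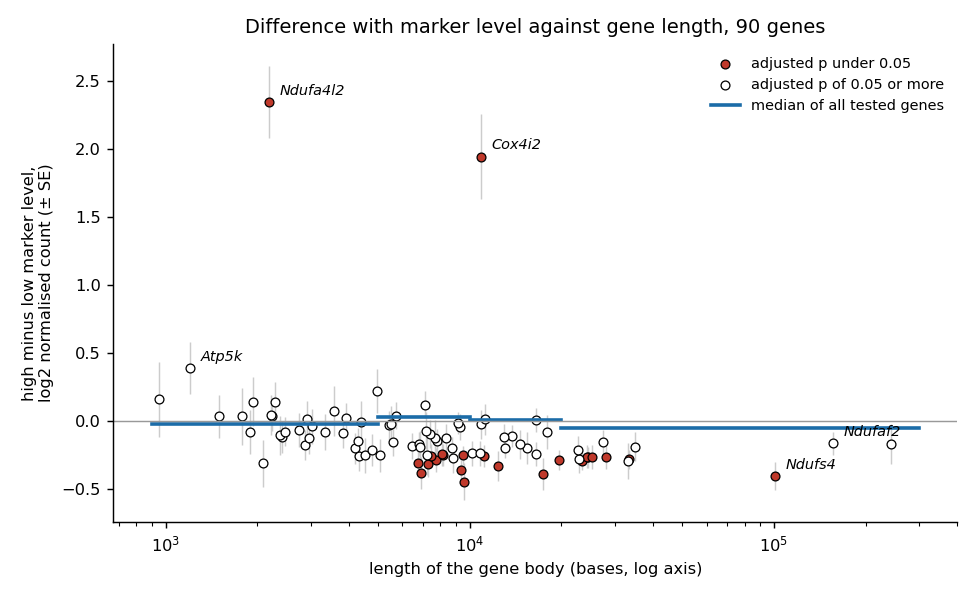
Difference in log2 normalised count between libraries with high and low non-myocyte markers (± SE) against the length of the gene body (log axis) for 90 genes; red points have an adjusted p under 0.05 in edgeR, and blue lines are medians of all tested genes in 4 length classes. Ndufa4l2 (2.35) and Cox4i2 (1.95) lie above all others, and the red points below 0 start at bodies of over 5 kb.

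Other genes of the pathway were read from lists of assembly factors, electron carriers with the exchangers of nucleotides and phosphate, regulators of mitochondrial genes, and subunits encoded by mitochondrial DNA. edgeR called 0 of 36, 0 of 21, 0 of 20 and 0 of 10 of them in each of the 5 comparisons of label and sex. Unadjusted p-values below 0.05 were found for 1 carrier in the difference between label effects and for 2 carriers and 1 mitochondrially encoded gene between sexes under the knockout label. With marker level, edgeR called 10 of 36 assembly factors lower and 1 higher, 8 of 21 carriers lower and 8 of 20 regulators lower, where 8.04% of all tested genes were called lower. It called 3 of 10 mitochondrially encoded genes higher, where 20.8% of all tested genes were called higher. Atpaf1, a chaperone of ATP synthase, fell by 0.30 on the log2 scale, and Taco1, an activator of the translation of a complex IV subunit, had a log2 fold change of 1.26 ± 0.207 (adjusted p of 0.000172 in edgeR). Ppargc1a, the coactivator that drives mitochondrial biogenesis, had a log2 fold change of -0.44 ± 0.109 and Lrpprc, a stabiliser of mitochondrial messengers, one of -0.47 ± 0.0979.

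The mitochondrially encoded subunits, which nuclei should lack, made up 0.0524 to 0.285% of all counts. In males all 10 tested were higher under the knockout label, with a median log2 fold change of 0.58, and in females 9 of 10 were lower, with a median of -0.18. None passed the test. mt-Nd4, a membrane subunit of complex I, had a male log2 fold change of 0.80 ± 0.392 (adjusted p of 0.999 in edgeR). Their share of counts was highest in knockout male 2, at 0.285%.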

How the data were processed

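Ribosomal RNA was depleted from the RNA of Pcm1-sorted nuclei and 15 strand-specific libraries were sequenced, per the labels' protocols. The reads were aligned with STAR 2.5.3a and assigned with featureCounts 1.5.0 on GRCm38 (mm10), per the submitters' processing notes. The authors deposited raw counts per gene in a table of 55536 genes and in a smaller one of 16610. The stated gene lengths span start to end in 100% of genes, so counts cover whole gene bodies. Positions of all 90 genes match GENCODE M21.

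The larger table was analysed in R 4.3.3 with edgeR 4.0.16: filterByExpr left 17455 genes, library sizes were TMM-scaled (trimmed mean of M values), and a quasi-likelihood model (robust dispersion, 1 mean per label group, 11 residual degrees of freedom) was fitted to all 15 libraries. A call means an adjusted p below 0.05 (Benjamini-Hochberg, all tested genes). The procedure was also run on simulated counts, whose set changes were larger than the label and sex differences described here. That run therefore does not show whether such differences would be called. Depth was 24.4 to 139.4 M counts, so a floor of 3 counts equals 0.0219 to 0.116 CPM and covers counting error only. No pair of libraries held identical values.

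The genes, the lists and the alternatives were chosen with earlier results of these data known. Full values are given for up to 5 of the 90 genes with the smallest unadjusted p in each comparison, called genes, the highest and lowest gene per complex, the paralogue sets, Cyc1 and the 4 Sdh genes. Up to 2 genes per pathway list and comparison may be named, beside Pgr, Pcm1, Xist and Ddx3y. Genes without overlap between groups, Ndufs4 and those called with marker level were named after their values were seen. Alternatives were DESeq2 1.42.0, its size factors (RLE), no filter, the smaller table, a replicate block, a term for marker level, subsets of libraries and leaving out each library. Whether equal replicate numbers pair libraries was checked through the correlation of their deviations from group means. It ran from 0.169 to 0.699 for males of both labels and from -0.41 to 0.708 for females. Across sexes it ran from 0.503 to 0.829 for the knockout label and from 0.179 to 0.842 for the wild-type label. Replicate number also goes with marker level, so these values cannot show whether libraries are paired. The main fit did not pair libraries, and the replicate block was an alternative applied to all groups. Motifs were searched with Python 3.11.15 in RefSeq promoters.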

Additional observations from a re-analysis of the deposited data

Results flagged for a closer look

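In groups of 4 libraries, the highest or lowest was compared with the gap to its neighbour by Dixon's 95% limit over 123 groups of values, and chance passes about 5% of such groups. The groups that passed are those listed here, and their share of the 123 was not above that of chance. Ndufaf7 stood at 6.08 CPM in knockout male 2, against 5.08 to 5.23 CPM in the other males labelled knockout. Ndufa4l2 stood at 0.751 CPM in wild-type male 1, the high-marker library of its group, against 0.118 to 0.213 CPM in the others. Sdhb stood at 56.8 CPM in the sex-mixed wild-type male 2, against 82.6 to 86.4 CPM in the others. The summed complex I assembly factors reached 194.1 CPM in wild-type male 3, against 148.6 to 153.5 CPM in the others. The summed complex IV genes reached 572.9 CPM in knockout female 4, against 460.2 to 473.7 CPM in the others.

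A signal outside the main measurement was read in the 2 genes whose bodies hold those of Cox4i1 and Ndufa13. Gm20388 had at least 59.3 CPM and Yjefn3 at least 2.47 CPM in every library, while Cox4i1 and Ndufa13 were at 0. Which of these reads come from the enclosed subunit genes was not tested.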

How the results depend on the processing

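No alternative called any of the 90 genes in the 5 comparisons of label and sex. Counts of called genes over the whole table were small and moved. In females (0) it was 3 by DESeq2 and 1 with a term for marker level, and 0 without any single library. In males (2) it was 4 by DESeq2 and 0 with RLE size factors, with high or low marker level alone and without the sex-mixed libraries, and 0 to 1 without single libraries. For the difference between label effects (0) it was 1 by DESeq2. Between sexes under the knockout label (4) it was 57 by DESeq2, 1 with high and 1 with low marker level alone, 2 without the filter, 11 with a marker term, 7 without the sex-mixed libraries and 0 to 10 without single libraries. Between sexes under the wild-type label (0) it was 14 by DESeq2, 6 without the sex-mixed libraries, 1 with each of high markers alone, low markers alone, no filter and the marker term, and 0 to 2 without single libraries.

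With the replicate number as a block, called genes were 13 and 1 between the sexes under the knockout and wild-type labels. With marker level they were 2200 in place of 5028, and the median of the 90 was -0.0137 in place of -0.166. The block changed no other call among the label comparisons. Without single libraries, genes called with marker level ran from 3603 to 5509 and the median of the 90 from -0.217 to -0.128.

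Fold changes that turned, all with high marker level alone, were Uqcr10 (0.10) and Uqcrq (0.0741) in females, and Ndufb11 (-0.13), Uqcrq (-0.15) and Ndufa2 (-0.16) between sexes under the wild-type label. These subsets hold 1 or 2 libraries per group, so a lone library is assumed to vary like the others. The call of Atp5s with marker level was also lost without the filter. Medians of the 90 without single libraries ran from -0.218 to -0.0599 in females, -0.0035 to 0.128 in males, -0.264 to -0.125 for the difference between label effects, and between sexes from -0.158 to -0.0435 for the knockout label and from 0.0428 to 0.177 for the wild-type label. Levels by complex and shares of paralogues moved by less than 1 SD. The causes of these changes were not tested. Depth limits Cox4i2 and Ndufa4l2, with 2 to 33 and 4 to 27 counts in low-marker libraries.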
